A study of Mus musculus with 36 samples.

Results

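The comparison described here is the response of Ift88-depleted mouse fibroblast-like chondrocytes to 4 h of IL-1β, an inflammatory cytokine, against the same cells at 0 h. The members are 6 of the 36 RNA-seq libraries of the series: 3 labelled IFT88 siRNA at 4 h (IL-1β at 10 ng/ml) and 3 labelled IFT88 siRNA at 0 h (no IL-1β). They were chosen by these labels, and no measured value was used. The series holds no library without IL-1β at 4 h, so effects of the cytokine and of elapsed time cannot be told apart. The word response stands below for the difference between 4 h with IL-1β and 0 h without it. All libraries of the series came from 1 conditionally immortalised wild-type cell line that had been transfected with a pool of siRNAs, given as 50 nM in the labels and at another concentration in the methods, either against Ift88 (IFT88siRNA) or non-targeting (NT). The 3 NT libraries at 0 h and the 3 at 4 h, which share no library with the 6, were used where the response is set beside that of cells with their usual Ift88. The IFT88siRNA libraries at 1, 2, 8 and 24 h were used for the time course. The labels do not say whether replicates were separate cultures, so the p-values measure the spread between these libraries, which may be technical. Since 1 line, 1 siRNA pool and a transient, partial knockdown were used, the groups model a lowered Ift88 level and not its absence.

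IL-1β binds the IL-1 receptor (IL1R1 with its partner IL1RAP), which recruits MYD88 and IRAK kinases and activates the IKK complex and MAP kinases. IKK marks the inhibitor IκBα for destruction, NFκB enters the nucleus, and genes for chemokines, cytokines, prostaglandin and nitric oxide enzymes, and NFκB's own inhibitors are transcribed. In chondrocytes this programme is known for matrix breakdown in arthritis. IFT88 is a subunit of the intraflagellar transport machinery that builds the primary cilium, and the study asked how lowering it alters the response to the cytokine.

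The 6 libraries held from 22689056 to 26699475 reads counted on genes. Levels are given as CPM, counts scaled to the library total with TMM factors, in the order of replicates 1, 2 and 3. Ift88 itself (chr14:57424062-57517936, plus strand in GRCm38) was at 2.59, 2.88 and 2.82 CPM at 0 h and 2.04, 1.43 and 2.101 CPM at 4 h in IFT88siRNA cells. In NT cells it was at 9.16, 8.65 and 9.35 CPM at 0 h and 5.83, 7.39 and 6.64 CPM at 4 h, so that the siRNA groups did not overlap at either time. The log2 difference between IFT88siRNA and NT was -1.71 (SE 0.11, adjusted p = 3.26e-10) at 0 h and -1.83 (SE 0.17, adjusted p = 1.73e-05) at 4 h in edgeR's quasi-likelihood test. Within IFT88siRNA cells the 4 h libraries were all below the 0 h libraries, and the log2 change of -0.57 (SE 0.18, adjusted p = 0.0123) did not pass the fold threshold. It did pass with upper-quartile scaling (-0.68) and with no filter on low counts (-0.60), and also without the 0 h library of replicate 1 (-0.62), the 4 h library of replicate 1 (-0.63) or the 4 h library of replicate 3 (-0.66). Exons of Ift88 overlap those of the antisense gene Ift88os, and the counting was without regard to strand.

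Markers of the line were checked over whole lists. All 12 fibroblast markers were at 1 CPM or more, with summed levels from 11155 to 12331 CPM at 0 h and from 14394 to 14825 CPM at 4 h. Of 16 chondrocyte markers 10 were at 1 CPM or more, while Acan, Cnmd, Col9a1, Col9a2, Matn1 and Matn3, among the markers that define mature cartilage, were under 1 CPM. Leukocyte markers summed to between 7.53 and 8.19 CPM at 0 h and between 6.67 and 8.03 CPM at 4 h, with Cd3e and S100a9 at 0 in all 6 libraries. Endothelial markers summed to between 1.91 and 3.10 CPM at 0 h and between 1.68 and 1.95 CPM at 4 h, with Cldn5 and Tie1 at 0. The sums of epithelial markers, from 3.20 to 4.06 CPM at 0 h and from 14.5 to 16.6 CPM at 4 h, and of muscle markers, from 3.41 to 3.69 CPM at 0 h and from 14.5 to 17.1 CPM at 4 h, were higher at 4 h, mostly through Cdh1 and Acta1, and their part in the results below was not tested. Osteoblast markers summed to between 648 and 732 CPM at 0 h and between 626 and 673 CPM at 4 h. Of these 6 markers, only 2 had a mean of 1 CPM or more at 0 h and 1 at 4 h. Alpl, Bglap, Ibsp and Sp7 were under 1 CPM at both times. In RNA of whole cultures, fewer cells of a type and less RNA per cell cannot be told apart.

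Of 15215 genes tested, 4526 (29.7%) passed an adjusted p of 0.05 and a fold of 1.5, 2450 higher at 4 h (16.1%) and 2076 lower (13.6%). Without the fold threshold 9397 passed the adjusted p. The CPM values of the 3 and 3 libraries did not overlap for 9976 genes, 65.6% of those tested. The rises were larger than the falls: 595 genes rose and 140 fell over 4-fold, 145 rose and 2 fell over 16-fold, and 30 rose over 100-fold. The median log2 change of all genes was -0.0096. The genes that rose held from 14.2% to 14.3% of each library's counts at 0 h and from 29.3% to 29.8% at 4 h. The split between directions depended on the scaling: 54.1% of the genes called were higher with TMM, against 43.7% with upper-quartile scaling, where the median of all genes moved to -0.126, and from 36.5% to 39.5% in the deposited TPM values, where it lay between -0.226 and -0.0456. Changes below are on the TMM scale. The numbers of list members that rose or fell are to be read beside the 16.1% and 13.6% of all genes.

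**Figure D1:**
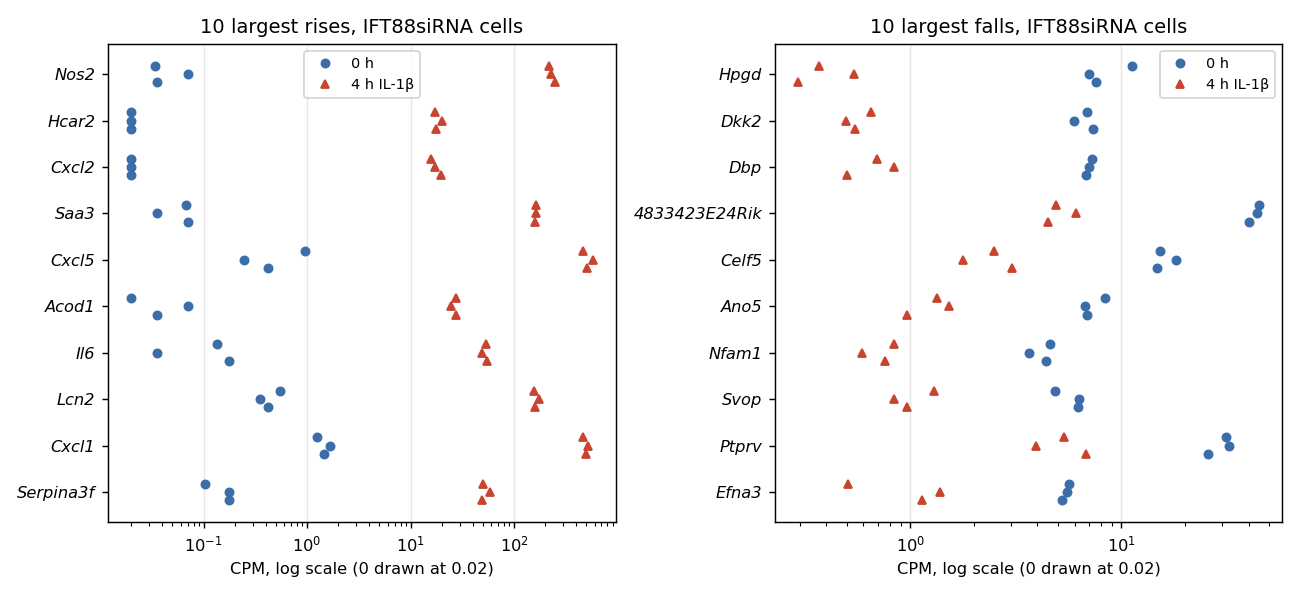
CPM (log axis) of the 10 largest rises (left) and the 10 largest falls (right) in IFT88siRNA cells, with 1 point for each of the 3 libraries at 0 h and the 3 at 4 h, and values of 0 drawn at the lower edge of the axis. In each gene the 2 groups of points do not overlap, which is what the rule for naming them required.

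The largest rise was that of Nos2, the inducible nitric oxide synthase (chr11:78920787-78960254, plus strand), at 0.0341, 0.0703 and 0.0353 CPM at 0 h and 219.97, 229 and 247 CPM at 4 h. At 0 h these levels stand for 1, 2 and 1 reads, so the ratio of 5003 has a counting interval (95%) from 1953 to 18363. Hcar2, a receptor for niacin and ketone bodies, had no read in any of the 3 libraries at 0 h and was at 17.2, 19.97 and 17.8 CPM at 4 h, which makes it at least 525-fold higher against a floor of 3 counts over the group. Cxcl2, a neutrophil-attracting chemokine, was likewise at 0 in all 0 h libraries and at 15.7, 17.4 and 19.7 CPM at 4 h, at least 507-fold higher. Genes at the lower limit at 0 h therefore led the list, and their fitted changes depend on the prior count.

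Saa3, an acute-phase serum amyloid, was at 0.0681, 0.0352 and 0.0705 CPM at 0 h and 164, 162 and 160.2 CPM at 4 h, a ratio of 2791 with an interval from 1196 to 8599. Acod1, which makes itaconate, went from 0, 0.0703 and 0.0353 to 27.4, 24.6 and 27.8 CPM, a ratio of 766 with an interval from 262 to 3717. All 4 h values of both genes lay far above all 0 h values. The remaining genes of the 10 largest rises were Cxcl5, Il6, Lcn2, Cxcl1 and Serpina3f. Lcn2, the iron-siderophore binding lipocalin, was at 0.545, 0.352 and 0.423 CPM at 0 h and 156, 173 and 158 CPM at 4 h (log2 change 8.51 (SE 0.11)). Serpina3f, a serine protease inhibitor of a family of near copies, was at 0.102, 0.176 and 0.176 CPM at 0 h and 50.5, 58.1 and 49.1 CPM at 4 h (log2 change 8.39 (SE 0.16)).

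Chemokines, the secreted proteins that guide leukocytes, made up the group with the largest median. Of 12 CXC chemokines tested, 9 rose and none fell, with a median log2 change of 6.13. Cxcl5 was at 0.954, 0.246 and 0.423 CPM at 0 h and 467, 575 and 505 CPM at 4 h, a log2 change of 9.87 (SE 0.16, adjusted p = 1.16e-19). Cxcl1 was at 1.26, 1.65 and 1.45 CPM at 0 h and 462, 521 and 491 CPM at 4 h, a log2 change of 8.395 (SE 0.09, adjusted p = 1.21e-21). Both attract neutrophils, and in neither did any library of one time come near those of the other. Cxcl10, a ligand of the T cell receptor CXCR3, was at 44.4, 37.1 and 40.2 CPM at 0 h and 3105, 3456 and 3145 CPM at 4 h, a log2 change of 6.31 (SE 0.08, adjusted p = 8.61e-21). Its fellow CXCR3 ligands rose as well, Cxcl11 with a log2 change of 7.403 (SE 0.13) and Cxcl9 with 6.56 (SE 0.25). Cxcl3, Cxcl16 and Ppbp rose with log2 changes from 2.16 to 5.94. Cxcl12, the homeostatic ligand of CXCR4, was at 30.1, 31.5 and 29.4 CPM at 0 h and 24.7, 27.5 and 23.8 CPM at 4 h, with no call and a log2 change of -0.26 (SE 0.07).

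Per transcript length, on the TPM scale, Cxcl10 stood highest of these at 4 h, with means (± SD, n = 3) from 84.8 ± 7.29 to 5771 ± 234 TPM. Cxcl1 went from 3.14 ± 0.386 to 980.1 ± 57.8 TPM and Cxcl5 from 1.39 ± 0.375 to 707 ± 65.001 TPM. Cxcl9 reached less, from 0.2004 ± 0.134 to 8.78 ± 2.12 TPM. The order in abundance at 4 h therefore differed from the order in fold.

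Of 12 CC and CX3C chemokines tested, 9 rose and none fell (median log2 change 3.51). Ccl2, which attracts monocytes, was at 5.31, 5.03 and 5.29 CPM at 0 h and 842, 927 and 856 CPM at 4 h, a log2 change of 7.39 (SE 0.08, adjusted p = 1.21e-21). Its neighbour in function Ccl7 was at 2.38, 2.29 and 2.33 CPM at 0 h and 324, 358 and 334 CPM at 4 h (7.17 (SE 0.08)). Ccl20, the ligand of CCR6, was at 0.238, 0.141 and 0.247 CPM at 0 h and 32.4, 46.5 and 40.8 CPM at 4 h (7.54 (SE 0.20)). Ccl5, which attracts T cells, already stood at 37.5, 36.3 and 34.3 CPM at 0 h and was at 259, 290.4 and 277 CPM at 4 h, a smaller log2 change of 2.93 (SE 0.06). Ccl4 was at 0 in all 0 h libraries and at 1.39, 0.939 and 1.43 CPM at 4 h. Ccl25, Ccl27a and Ccl28 did not pass the test.

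Among 18 cytokines and colony-stimulating factors tested, 15 rose and Ctf1, a cytokine of the IL-6 family, fell by 1.12 on the log2 scale; the median log2 change was 1.76. Il6 was at 0.136, 0.0352 and 0.176 CPM at 0 h and 54.2, 49.2 and 54.6 CPM at 4 h, a log2 change of 8.76 (SE 0.16, adjusted p = 8.71e-19). Csf3, the granulocyte colony-stimulating factor, was at 0.0681, 0.141 and 0 CPM at 0 h and 10.1, 11.1 and 10.8 CPM at 4 h (7.16 (SE 0.27)). Lif, also of the IL-6 family, was at 22.2, 22.96 and 23.7 CPM at 0 h and 407, 383 and 419.8 CPM at 4 h (4.13 (SE 0.06)). Tslp, a cytokine that acts on dendritic cells, was at 8.38, 7.14 and 7.44 CPM at 0 h and 171, 228 and 217 CPM at 4 h (4.74 (SE 0.10)). All 4 had separate groups of libraries. Tnf remained low in absolute terms, at 0.0681, 0.0352 and 0.0705 CPM at 0 h and 1.95, 1.73 and 2.35 CPM at 4 h, which is 5 reads over the 0 h libraries and 133 over the 4 h libraries. Csf1, the macrophage colony-stimulating factor, was the reverse case, with 618, 631 and 632 CPM at 0 h and 2039.5, 2118 and 2142 CPM at 4 h and a log2 change of only 1.74 (SE 0.05). The receptor antagonist Il1rn, which competes with IL-1 for its receptor, was at 61.5, 56.3 and 56.2 CPM at 0 h and 188, 210.4 and 176 CPM at 4 h (1.72 (SE 0.06)).

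The proximal promoters of a few of these genes are shown because IL-1β acts in part through NFκB and because the genes rose together. Some but not all NFκB sites take the form GGGNNNTTCC, the pattern searched for here. The stretches were read from RefSeq (GRCm38.p6), 5′ to 3′ on the gene's strand, with letters that match GGGNNNTTCC on either strand in capitals (overlapping matches run together). Positions count back from the base before the start site, -1.
Cxcl1 (chr5:90891125-90891244, plus strand, -120 to -1): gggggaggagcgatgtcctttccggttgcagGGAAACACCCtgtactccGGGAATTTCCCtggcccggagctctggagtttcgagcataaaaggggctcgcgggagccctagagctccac
Cxcl2 (chr5:90903779-90903898, plus strand, -120 to -1): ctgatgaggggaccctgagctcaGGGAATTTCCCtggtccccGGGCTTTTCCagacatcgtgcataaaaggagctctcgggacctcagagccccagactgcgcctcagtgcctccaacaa
Il6 (chr5:30012994-30013113, plus strand, -120 to -1): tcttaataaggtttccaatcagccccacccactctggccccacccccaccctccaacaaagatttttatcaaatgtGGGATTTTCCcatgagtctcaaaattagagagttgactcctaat
Cxcl10 (chr5:92348950-92349069, minus strand, -180 to -61): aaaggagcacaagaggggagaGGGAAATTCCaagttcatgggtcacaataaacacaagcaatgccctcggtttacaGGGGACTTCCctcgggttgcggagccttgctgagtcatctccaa
Nfkbia (chr12:55492648-55492767, minus strand, -120 to -1): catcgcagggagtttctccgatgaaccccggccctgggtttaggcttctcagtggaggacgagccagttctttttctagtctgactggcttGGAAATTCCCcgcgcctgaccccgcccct
The matches begin at -89, -71 and -70 in Cxcl1, at -97, -96 and -78 in Cxcl2, at -44 in Il6, at -159 and -104 in Cxcl10, and at -29 in Nfkbia. The neighbouring genes Cxcl1 and Cxcl2 share 1 run of capitals, which matches on both strands. Of 27025 promoter windows of mouse genes in that table, each from 250 bases before to 50 after the start, 6.31% hold a match, so a match is a description of these letters and not a binding site. Promoter windows were found for 10559 of the 15215 genes tested, and no share was given for the genes that rose or fell. The genes and stretches shown were picked by hand, and each holds a match. The stretch of Cxcl10 lies further from the start site than the others. They are not a sample of the genes that rose and cannot be set against the 6.31%.

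For prostaglandin and nitric oxide synthesis, 10 of 17 genes tested rose and 2 fell (median log2 change 0.95). The rises included some steps of each synthesis, while Ass1, Ptges3, Ptgis, Pts and Spr were not called. Pla2g4a, the phospholipase that frees arachidonic acid, was at 69.2, 59.2 and 65.5 CPM at 0 h and 142, 150.1 and 138 CPM at 4 h (1.15 (SE 0.06)). Ptgs2, which encodes COX2, was at 36.7, 33.2 and 36.02 CPM at 0 h and 698, 616 and 665 CPM at 4 h, a log2 change of 4.22 (SE 0.07, adjusted p = 1.43e-19). Ptges, the inducible prostaglandin E synthase, was at 2.79, 2.22 and 2.36 CPM at 0 h and 7.598, 8.06 and 7.31 CPM at 4 h (1.63 (SE 0.13)). Beside Nos2, the arginine transporter Slc7a2 was at 115, 108 and 105 CPM at 0 h and 890.03, 972 and 979 CPM at 4 h (3.12 (SE 0.06)). Gch1, which makes the cofactor of nitric oxide synthases, was at 18.5, 18.3 and 17.4 CPM at 0 h and 95.3, 106 and 99.7 CPM at 4 h (2.47 (SE 0.06)). The 2 falls were Hpgd, the enzyme that inactivates prostaglandins, at 11.3, 7.03 and 7.58 CPM at 0 h and 0.371, 0.544 and 0.294 CPM at 4 h, and Asl, which returns arginine from citrulline, with a log2 change of -0.65 (SE 0.12). Hpgd had the largest fall of any gene named here, with a log2 change of -4.43 (SE 0.26, adjusted p = 3.19e-11), and the groups lay far apart.

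Of 24 genes of the IL-1 receptor and its proximal signalling, 8 rose and Peli3 fell, beside 29.7% of all genes called. The median log2 change was 0.13. Il1rl1, the receptor of IL-33, moved most, with 22.01, 18.4 and 21.7 CPM at 0 h and 571, 589 and 589.6 CPM at 4 h and a log2 change of 4.81 (SE 0.07, adjusted p = 4.83e-20). The receptor Il1r1 was at 33.96, 30.98 and 31.6 CPM at 0 h and 80.1, 83.6 and 80.6 CPM at 4 h (1.33 (SE 0.06)) and its partner Il1rap at 70.8, 63.5 and 70.4 CPM at 0 h and 183, 212 and 202 CPM at 4 h (1.54 (SE 0.06)). The adaptor Myd88 was at 51.7, 49.2 and 49.1 CPM at 0 h and 176, 194 and 171 CPM at 4 h (1.85 (SE 0.06)). Map3k8, a kinase upstream of ERK, and Irak3, a brake on the pathway, rose with log2 changes of 3.398 (SE 0.11) and 1.88 (SE 0.18). The other 15 members did not pass the test.

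Of 11 NFκB subunits and kinases, 8 rose and none fell (median 0.96). The precursors Nfkb1 and Nfkb2 were at 140.1, 142 and 141 CPM at 0 h and 666, 741 and 691 CPM at 4 h (2.31 (SE 0.06)) and 120.2, 129 and 119 CPM at 0 h and 380.3, 404 and 403 CPM at 4 h (1.69 (SE 0.05)). Relb, of the alternative pathway, was at 22.5, 26.8 and 22.9 CPM at 0 h and 109, 115 and 107 CPM at 4 h (2.19 (SE 0.07)). Rela, the p65 subunit, rose less, from 93.6, 97.996 and 96.4 to 179.6, 196 and 186 CPM (0.96 (SE 0.05)), and Rel from 24.9, 26.3 and 26.7 to 50.3, 52.9 and 54.6 CPM (1.02 (SE 0.06)). The list of inhibitors and feedback genes held 16 rises among 22 and no fall (median 1.80). Nfkbia, which encodes IκBα, was at 45.4, 45.4 and 42.3 CPM at 0 h and 235, 252 and 243 CPM at 4 h (2.45 (SE 0.06)). Tnfaip3, which encodes the ubiquitin editor A20, was at 24.2, 24.1 and 21.9 CPM at 0 h and 209, 223 and 219 CPM at 4 h (3.21 (SE 0.06)). Larger folds were seen in Zc3h12a, a nuclease that degrades cytokine mRNAs, at 4.97, 5.66 and 6.21 CPM at 0 h and 171, 193 and 175 CPM at 4 h (4.99 (SE 0.08)), and in Bcl3, a nuclear IκB protein, at 1.84, 2.18 and 2.72 CPM at 0 h and 69.4, 69.3 and 62.8 CPM at 4 h (4.898 (SE 0.10)). Nfkbiz, another nuclear IκB, was at 30.9, 30.7 and 28.3 CPM at 0 h and 381, 371 and 364 CPM at 4 h (3.63 (SE 0.06)).

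**Figure D2:**
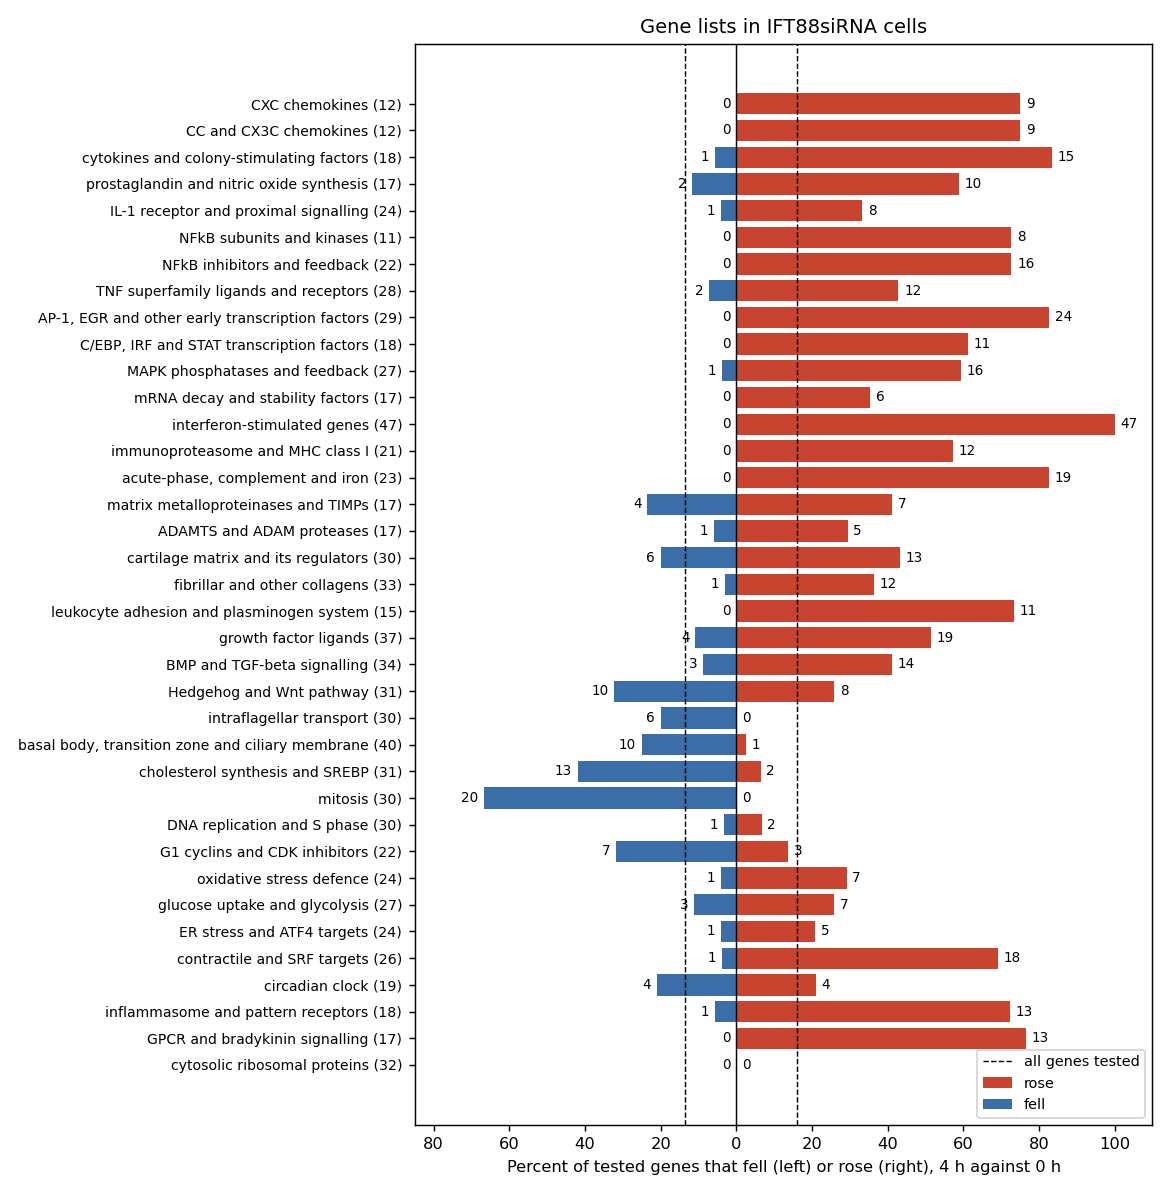
Percent of the tested genes of each list that rose (bars to the right) or fell (bars to the left) at 4 h against 0 h in IFT88siRNA cells, with the number of genes at the end of each bar, the number tested in brackets, and dashed lines for all genes tested (16.1% rose and 13.6% fell). The bar of the 47 interferon-stimulated genes reaches the full list to the right, and the longest bar to the left is that of mitosis, with 20 of 30 genes.

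Among 29 early transcription factors of the AP-1, EGR and related families, 24 rose at 4 h and none fell (median 1.54). Junb was at 85.1, 87.2 and 85.5 CPM at 0 h and 427, 459.8 and 451 CPM at 4 h (2.37 (SE 0.05)), Fosl2 at 131, 132 and 131 CPM at 0 h and 689, 718 and 665 CPM at 4 h (2.39 (SE 0.05)) and Jun at 79.7, 84.9 and 84.7 CPM at 0 h and 186, 194 and 177 CPM at 4 h (1.15 (SE 0.05)). Each had come down by 4 h from a higher mean at 1 h, 1653 ± 114 CPM, 1077 ± 34.3 CPM and 629.7 ± 60.2 CPM in that order. Fos, at 12.7, 13.04 and 13.7 CPM at 0 h and 24.9, 32.7 and 30.1 CPM at 4 h, and Egr1, at 219, 201 and 213 CPM at 0 h and 252, 295 and 310.4 CPM at 4 h, had means of 235 ± 34.1 CPM and 1897 ± 225 CPM at 1 h, and Egr1 did not pass the fold threshold at 4 h (0.43 (SE 0.07)). Ier3, an NFκB target that protects against cell death, had the largest change of the list (3.32 (SE 0.06)). Exons of Jun and Junb overlap those of Junos and Prdx2.

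Of 18 C/EBP, IRF and STAT factors tested, 11 rose and none fell (median 1.37). Irf5 was at 3.75, 3.76 and 4.198 CPM at 0 h and 66.02, 68.5 and 74.5 CPM at 4 h (4.15 (SE 0.08)). Cebpd, a driver of acute-phase genes, was at 26.9, 38.6 and 27.8 CPM at 0 h and 486, 516 and 440.03 CPM at 4 h (3.94 (SE 0.10)) and Cebpb at 4.497, 8.72 and 5.01 CPM at 0 h and 44.9, 42.9 and 33.5 CPM at 4 h (2.73 (SE 0.16)). Stat2, which carries the interferon signal, rose with a log2 change of 2.102 (SE 0.07), Irf1 with 1.63 (SE 0.05) and Stat3 with 1.41 (SE 0.05).

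Feedback on MAP kinases and on cytokine receptors was represented by 27 genes, of which 16 rose and Dusp4 fell (median 0.83). Errfi1, an inhibitor of the EGF receptor, was at 69.3, 64.5 and 68.2 CPM at 0 h and 534, 561 and 554 CPM at 4 h (3.03 (SE 0.06)). The ERK phosphatases Dusp5 and Dusp6 rose with log2 changes of 2.29 (SE 0.07) and 1.81 (SE 0.05), and Socs3, which blocks JAK signalling, with 2.28 (SE 0.06). Dusp1, which acts on p38 and JNK, was at 29.9, 32.9 and 30.8 CPM at 0 h and 109, 104 and 98.7 CPM at 4 h (1.73 (SE 0.06)). Of 17 factors of mRNA decay and stability, 6 rose and none fell (median 0.31), beside 29.7% of all genes called. Arid5a, which stabilises Il6 mRNA, was at 20.3, 21.2 and 20.5 CPM at 0 h and 103, 95.2 and 104 CPM at 4 h (2.28 (SE 0.06)). Zfp36, the tristetraprolin that destabilises Tnf mRNA, was at 22.5, 24.8 and 21.8 CPM at 0 h and 60.6, 61.7 and 70.97 CPM at 4 h (1.48 (SE 0.07)).

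All 47 interferon-stimulated genes on the list were tested and all 47 rose, against 16.1% of all genes; their log2 changes lay between 0.83 and 6.17 with a median of 2.42. The list was chosen with earlier results of these data known. Gbp5 and Gbp2, guanylate-binding proteins that act against intracellular microbes, were at 2.56, 2.496 and 2.65 CPM at 0 h and 175, 194 and 188 CPM at 4 h (6.17 (SE 0.08)) and 43.8, 40.7 and 40.99 CPM at 0 h and 1113, 1257 and 1146 CPM at 4 h (4.804 (SE 0.07)). Mx1, an antiviral GTPase, was at 4.803, 4.92 and 4.16 CPM at 0 h and 285, 245 and 296 CPM at 4 h (5.89 (SE 0.09)). Rsad2, which encodes viperin, was at 29.4, 27.1 and 27.6 CPM at 0 h and 736, 762 and 780.1 CPM at 4 h (4.76 (SE 0.06)). Isg15, a ubiquitin-like modifier, and Ifit1, which binds viral RNA, were already expressed, and changed by 1.97 (SE 0.05) and 3.401 (SE 0.06) on the log2 scale. Reads of close copies on this list (Tgtp1 and Tgtp2, Ifit3 and Ifit3b, the Oas1 genes) map to several places and, with the counting used, may be missing from their counts.

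Antigen presentation moved less. Of 21 immunoproteasome and MHC class I genes, 12 rose and none fell (median 0.88). Psmb10, a catalytic subunit of the immunoproteasome, was at 29.5, 31.96 and 29.9 CPM at 0 h and 205, 213 and 192 CPM at 4 h (2.73 (SE 0.06)). The peptide transporter subunit Tap2 and the chaperone Tapbp rose with log2 changes of 1.53 (SE 0.05) and 1.48 (SE 0.05). B2m, the MHC light chain, was at 2307, 2149 and 2255 CPM at 0 h and 2515, 2770.3 and 2375 CPM at 4 h (0.19 (SE 0.06)) and H2-K1 at 2194, 2319.6 and 2288 CPM at 0 h and 2679, 2910.3 and 2617 CPM at 4 h (0.27 (SE 0.06)); neither passed the fold threshold.

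Of 23 acute-phase, complement and iron genes tested, 19 rose and none fell (median 1.65). Beside Saa3 and Lcn2, Steap4, a metalloreductase, was at 1.94, 2.36 and 1.76 CPM at 0 h and 35.8, 41.8 and 38.4 CPM at 4 h (4.25 (SE 0.11)). Hp, which binds free haemoglobin, was at 0.136, 0.176 and 0.212 CPM at 0 h and 8.71, 7.22 and 5.88 CPM at 4 h (5.34 (SE 0.26)). C3, the central complement component, was at 16.1, 11.96 and 14.1 CPM at 0 h and 113, 115 and 107 CPM at 4 h (2.99 (SE 0.08)). Fth1, the ferritin heavy chain, changed by a log2 of 1.06 (SE 0.07) from a high level, at 1105, 1232 and 1173 CPM at 0 h and 2544, 2594 and 2211 CPM at 4 h. Saa1 and Saa2 are close copies, and Saa2 was at 0, 0.0352 and 0.0353 CPM at 0 h and 5.84, 4.89 and 5.34 CPM at 4 h.

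Pattern receptors and inflammasome genes showed 13 rises and 1 fall among 18 (median 1.07). Tlr2, a receptor of bacterial lipoproteins, was at 28.3, 26.8 and 27.5 CPM at 0 h and 392, 455 and 411 CPM at 4 h (3.92 (SE 0.07)). Tlr3, which senses double-stranded RNA, was at 26.9, 25.8 and 26.5 CPM at 0 h and 284, 313 and 311 CPM at 4 h (3.51 (SE 0.06)). Casp4, the inflammatory caspase that binds lipopolysaccharide, was at 12.8, 10.4 and 11.1 CPM at 0 h and 127, 139.9 and 133 CPM at 4 h (3.54 (SE 0.07)), and Nod2, which senses peptidoglycan, at 3.54, 3.16 and 3.49 CPM at 0 h and 33.4, 35.7 and 38.6 CPM at 4 h (3.396 (SE 0.09)). Tlr4 changed least among the rises, with 0.60 (SE 0.06), and Tlr1 fell by 0.72 on the log2 scale at levels near 1 CPM. Of 28 TNF superfamily ligands and receptors, 12 rose and 2 fell (median 0.37). Tnfsf15 was at 0.784, 0.457 and 0.635 CPM at 0 h and 26.9, 29.5 and 27.7 CPM at 4 h (5.47 (SE 0.14)) and Tnfsf10, the death ligand TRAIL, at 2.69, 1.93 and 2.36 CPM at 0 h and 84.1, 90.6 and 80.9 CPM at 4 h (5.18 (SE 0.09)). The receptor Tnfrsf9 and the decoy receptor Tnfrsf11b, known as osteoprotegerin, rose with log2 changes of 4.18 (SE 0.12) and 2.29 (SE 0.08).

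Adhesion molecules and the plasminogen system held 11 rises among 15 tested and no fall (median 2.60). Vcam1, which binds leukocyte integrins, was at 11.4, 11.2 and 12.2 CPM at 0 h and 486, 564 and 522 CPM at 4 h (5.49 (SE 0.07)). Icam1 was at 3.202, 3.34 and 2.61 CPM at 0 h and 72.9, 90.7 and 82.7 CPM at 4 h (4.74 (SE 0.10)). The plasminogen activator Plau was at 43.2, 42.2 and 39.7 CPM at 0 h and 107, 104 and 102 CPM at 4 h (1.32 (SE 0.05)). Selp was at 0 in all 0 h libraries and at 1.34, 1.19 and 0.588 CPM at 4 h. Of 17 genes of G protein-coupled receptors and their regulators, 13 rose and none fell (median 2.01). Rgs16, which switches G proteins off, was at 0.954, 1.44 and 1.48 CPM at 0 h and 52.3, 44.98 and 56.5 CPM at 4 h (5.31 (SE 0.13)). Bdkrb1, the inducible bradykinin receptor, was at 0.784, 0.949 and 1.02 CPM at 0 h and 14.5, 17.1 and 14.9 CPM at 4 h (4.06 (SE 0.14)). The sphingosine 1-phosphate receptor S1pr1 and the prostaglandin E2 receptor Ptger4 rose with log2 changes of 3.66 (SE 0.08) and 2.702 (SE 0.09).

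Matrix proteases did not move as 1 group. Of 17 metalloproteinases and their inhibitors, 7 rose and 4 fell (median 0.18). Mmp13, the main collagenase of cartilage, was at 0.749, 0.563 and 0.423 CPM at 0 h and 8.85, 9.05 and 10.2 CPM at 4 h (3.998 (SE 0.18)) and Mmp3, stromelysin, at 0.307, 0.141 and 0.176 CPM at 0 h and 1.67, 1.38 and 1.64 CPM at 4 h (2.88 (SE 0.32)); both remained low at 4 h. The inhibitor Timp1 was at 107, 102 and 103 CPM at 0 h and 597, 682 and 605 CPM at 4 h (2.59 (SE 0.06)). Mmp15 fell by 1.86 on the log2 scale, from 22.9, 27.3 and 25.5 to 7.41, 6.87 and 6.597 CPM. Mmp2 and Mmp14 did not pass, with log2 changes of 0.08 (SE 0.08) and 0.07 (SE 0.06). Of 17 ADAMTS and ADAM proteases, 5 rose and 1 fell, which is not far from the 29.7% of all genes called. The median of 0.34 changed sign under the alternatives on the counts, with values from -0.13 to 0.42, TPM values not included. Among the aggrecan-cleaving enzymes, Adamts4 was at 9.54, 9.04 and 7.87 CPM at 0 h and 29.7, 34.7 and 32.4 CPM at 4 h (1.87 (SE 0.09)), while Adamts5 was at 172, 169.97 and 169 CPM at 0 h and 80.6, 81.2 and 71.1 CPM at 4 h and fell by 1.14 on the log2 scale (SE 0.06).

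Of 30 cartilage matrix genes and regulators tested, 13 rose and 6 fell (median 0.21). Among the rises were Cilp2, a cartilage matrix protein, at 6.03, 5.38 and 4.59 CPM at 0 h and 31.9, 32.2 and 28.7 CPM at 4 h (2.53 (SE 0.10)), and Dcn, the small proteoglycan decorin, at 14.3, 14.8 and 13.4 CPM at 0 h and 56.5, 64.7 and 52.99 CPM at 4 h (2.03 (SE 0.08)). The hyaluronan synthase Has2 was at 24.7, 26.7 and 24.9 CPM at 0 h and 97.01, 101 and 90.8 CPM at 4 h (1.92 (SE 0.06)), and Tnfaip6, which modifies hyaluronan, at 2.76, 1.79 and 2.58 CPM at 0 h and 10.9, 13.6 and 9.79 CPM at 4 h (2.25 (SE 0.16)). Among the falls were Col2a1, the main cartilage collagen, at 12.4, 11.1 and 11.4 CPM at 0 h and 6.63, 6.57 and 8.45 CPM at 4 h (-0.69 (SE 0.11)), Hapln1, the link protein that ties aggrecan to hyaluronan, at 22.8, 21.2 and 22.5 CPM at 0 h and 11.4, 13.7 and 10.4 CPM at 4 h (-0.92 (SE 0.09)), and the transcription factor Sox4, at 69.2, 101 and 75.5 CPM at 0 h and 48.4, 45.97 and 37.4 CPM at 4 h (-0.90 (SE 0.11)). Sox9, the master regulator of chondrocytes, was at 32.6, 35.8 and 32.8 CPM at 0 h and 33.03, 25.9 and 26.3 CPM at 4 h; its groups overlapped and it was not called (-0.25 (SE 0.08)). Of 33 collagens and their modifying enzymes, 12 rose and Eln fell (median 0.38). Lox, which cross-links collagen, was at 724, 686 and 647 CPM at 0 h and 1566, 1884 and 1531 CPM at 4 h (1.27 (SE 0.07)), and Col3a1 at 468, 447 and 450.2 CPM at 0 h and 795, 864 and 785 CPM at 4 h (0.84 (SE 0.05)). Col5a3, Loxl2 and Col27a1 rose with log2 changes from 1.71 to 1.75. Col1a1, the main collagen of fibroblasts, was at 332, 372 and 324 CPM at 0 h and 247, 260.4 and 243 CPM at 4 h and missed the fold threshold (-0.46 (SE 0.06)).

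Growth factor ligands gave 19 rises and 4 falls among 37 (median 0.77). Pdgfb, a mitogen of mesenchymal cells, was at 0.443, 0.457 and 0.705 CPM at 0 h and 44.7, 49.8 and 54.2 CPM at 4 h (6.52 (SE 0.14)). The EGF receptor ligands Btc and Ereg were at 1.09, 1.58 and 1.52 CPM at 0 h and 22.2, 22.1 and 22.9 CPM at 4 h (3.9998 (SE 0.12)) and 45.7, 37.2 and 43.1 CPM at 0 h and 535, 643 and 585 CPM at 4 h (3.802 (SE 0.08)). Gdnf and Vegfa rose with log2 changes of 3.08 (SE 0.08) and 2.84 (SE 0.07), while Fgf18, a chondrocyte growth factor, fell by 1.89 on the log2 scale, from 2.56, 2.64 and 3.14 to 0.8803, 0.741 and 0.6303 CPM. In BMP and TGF-β signalling, 14 of 34 rose and 3 fell (median 0.21). Grem1, a BMP antagonist, was at 23.7, 22.96 and 24.7 CPM at 0 h and 161, 147 and 137 CPM at 4 h (2.64 (SE 0.06)). Skil and Tgif1, co-repressors of SMADs, rose with log2 changes of 2.17 (SE 0.06) and 1.79 (SE 0.05), and the receptor Acvr1b with 1.91 (SE 0.07).

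Hedgehog and Wnt genes moved in both directions, 8 up and 10 down of 31 (median -0.02). The Hedgehog receptor Ptch1 was at 55.4, 58.4 and 54.96 CPM at 0 h and 174, 184 and 174 CPM at 4 h (1.65 (SE 0.05)), while Smo, which transduces the signal, was at 322, 341 and 328 CPM at 0 h and 179.9, 194 and 165 CPM at 4 h and fell by 0.88 on the log2 scale. Gli1, a target of the pathway, was under 1 CPM in all 6 libraries and not called (-0.02 (SE 0.29)). Dkk2, a Wnt antagonist, was at 6.85, 5.98 and 7.302 CPM at 0 h and 0.649, 0.494 and 0.546 CPM at 4 h, a log2 change of -3.56 (SE 0.19, adjusted p = 6.67e-12). Wnt9a fell by 1.47 and Wnt11 rose by 2.88 on the log2 scale.

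Contractile genes and targets of the actin-regulated factor SRF gave 18 rises and 1 fall, of the muscle filament gene Des, among 26 (median 0.92). Acta2, smooth muscle actin, was at 1305, 1457 and 1509 CPM at 0 h and 3922, 4432 and 3852 CPM at 4 h (1.51 (SE 0.07)). Itga5, the fibronectin receptor subunit, was at 166, 176 and 172 CPM at 0 h and 799.6, 814 and 776 CPM at 4 h (2.21 (SE 0.05)), Csrp1 at 334, 364 and 349.8 CPM at 0 h and 1179.5, 1262 and 1152 CPM at 4 h (1.77 (SE 0.06)) and Acta1 at 2.21, 2.64 and 2.79 CPM at 0 h and 15.7, 14.2 and 16.6 CPM at 4 h (2.604 (SE 0.12)). The summed muscle markers moved with this group, as given above, mostly through Acta1, which is on both lists. Myod1, Myog, Ckm and Myh3, which define skeletal muscle, were under 1 CPM.

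Among the 10 largest falls, all with separate groups of libraries, were Hpgd and Dkk2. Dbp, a clock-controlled transcription factor, was at 7.26, 6.997 and 6.81 CPM at 0 h and 0.695, 0.8403 and 0.504 CPM at 4 h, a log2 change of -3.38 (SE 0.18, adjusted p = 6.46e-12). The uncharacterised gene 4833423E24Rik was at 45.002, 44.02 and 40.002 CPM at 0 h and 4.91, 6.08 and 4.496 CPM at 4 h (-3.07 (SE 0.10)). Celf5, an RNA-binding protein, was at 15.3, 18.04 and 14.7 CPM at 0 h and 2.502, 1.78 and 3.03 CPM at 4 h (-2.702 (SE 0.14)). Ptprv, a receptor phosphatase of bone cells, was at 31.3, 32.1 and 25.6 CPM at 0 h and 5.33, 3.95 and 6.77 CPM at 4 h (-2.46 (SE 0.13)). Ano5, Nfam1, Svop and Efna3 completed the 10, with log2 changes from -2.53 to -2.44. Exons of Dbp, Celf5, Ptprv, Svop and Efna3 overlap those of another gene, so reads there cannot be given to 1 gene with certainty.

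Mitotic genes fell together: of 30, 20 fell and none rose, beside 13.6% of all genes that fell, with a median log2 change of -0.69. Aspm, of the spindle pole, was at 106, 108 and 109 CPM at 0 h and 47.4, 45.8 and 53.95 CPM at 4 h (-1.13 (SE 0.06)). Mki67, the proliferation marker, was at 464, 489 and 459 CPM at 0 h and 257, 216 and 263 CPM at 4 h (-0.94 (SE 0.07)). Nusap1 and Cenpf fell by 1.14 and 1.02 on the log2 scale. Cdk1 and Top2a were lower in all 4 h libraries but missed the fold threshold (-0.38 (SE 0.06) and -0.57 (SE 0.05)). Of 30 genes of DNA replication and S phase, 2 rose and 1 fell (median -0.05): Mcm6, a helicase subunit, was at 424, 395 and 414 CPM at 0 h and 676, 745 and 675 CPM at 4 h (0.76 (SE 0.06)). Of 22 G1 cyclins and CDK inhibitors, 3 rose and 7 fell (median -0.22). Ccnd1, the G1 cyclin, was at 279, 269 and 265 CPM at 0 h and 141, 119 and 118 CPM at 4 h (-1.11 (SE 0.06)) and its partner Cdk6 at 34.5, 33.02 and 33.2 CPM at 0 h and 112, 104 and 112 CPM at 4 h (1.702 (SE 0.06)). Cdkn1a, which encodes p21, was at 983, 965 and 971 CPM at 0 h and 919, 909 and 873 CPM at 4 h and not called (-0.12 (SE 0.05)).

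Cholesterol synthesis and SREBP targets gave 13 falls and 2 rises among 31 (median -0.54). Insig1, which retains SREBP in the ER, was at 86.9, 79.6 and 84.9 CPM at 0 h and 29.7, 27.8 and 29.5 CPM at 4 h (-1.53 (SE 0.06)). The enzymes Sqle and Mvd were at 103, 95.04 and 102 CPM at 0 h and 35.95, 39.1 and 34.7 CPM at 4 h (-1.45 (SE 0.06)) and 46.4, 47.1 and 43.95 CPM at 0 h and 19.5, 19.8 and 17.8 CPM at 4 h (-1.27 (SE 0.07)). The 2 rises were Ch25h, which makes the SREBP-blocking 25-hydroxycholesterol, at 0.204, 0.211 and 0.247 CPM at 0 h and 50.96, 54.03 and 54.1 CPM at 4 h (7.87 (SE 0.13)), and Abca1, a cholesterol exporter. At 1 h the mean of Insig1 had been 381 ± 15.2 CPM, above its 0 h level.

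Genes of the cilium, the organelle that IFT88 builds, are given beside the 13.6% of all genes that fell. Of 30 genes of intraflagellar transport, 6 fell and none rose (median -0.47), with 5 falls in NT cells; the number that fell was from 5 to 15 under other scalings, filters and left-out libraries, and 9 without the 2 libraries labelled replicate 2. Ift140, of the retrograde complex, was at 54.03, 54.6 and 56.2 CPM at 0 h and 27.8, 23.8 and 24.8 CPM at 4 h (-1.11 (SE 0.06)). Its fellow subunits Wdr19 and Wdr35 were at 31.4, 33.4 and 32.4 CPM at 0 h and 17.5, 16.4 and 15.6 CPM at 4 h (-0.98 (SE 0.07)) and 95.5, 91.4 and 93.02 CPM at 0 h and 50.9, 47.1 and 45.6 CPM at 4 h (-0.97 (SE 0.05)), and Ift172, of the anterograde complex, at 47.5, 52.3 and 44.6 CPM at 0 h and 32.3, 27.8 and 29.2 CPM at 4 h (-0.70 (SE 0.07)). Kif3a, a motor subunit, was at 31.9, 32.2 and 31.1 CPM at 0 h and 29.97, 35.5 and 32.3 CPM at 4 h, with overlapping groups (0.03 (SE 0.07)). Of 40 genes of the basal body, transition zone and ciliary membrane, 10 fell and 1 rose (median -0.24), and in NT cells 9 fell and 1 rose. Tmem231 and Inpp5e fell by 1.18 and 0.88 on the log2 scale, and Bbs7, of the BBSome, by 0.94. The 1 rise was Tmem67, a transition zone protein, at 24.7, 23.5 and 22.6 CPM at 0 h and 58.2, 56.3 and 60.7 CPM at 4 h (1.303 (SE 0.06)). Nphp4 was at 7.73, 7.59 and 7.196 CPM at 0 h and 4.35, 5.24 and 5.17 CPM at 4 h (-0.61 (SE 0.12)), near the fold threshold and not called without the 4 h library of replicate 1 (-0.53), and Ttbk2, the kinase that starts ciliogenesis, at 29.1, 26.8 and 24.9 CPM at 0 h and 21.2, 19.8 and 21.2 CPM at 4 h and not called (-0.38 (SE 0.07)).

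In metabolism and stress the shares called are read beside the 29.7% of all genes. Of 27 gene identifiers of glucose uptake and glycolysis (26 symbols), 7 rose and 3 fell (median 0.16): Hk2, the inducible hexokinase, was at 12.3, 12.7 and 12.8 CPM at 0 h and 177, 169.99 and 172 CPM at 4 h (3.77 (SE 0.06)) and Pfkfb3, which drives glycolytic flux, at 8.48, 7.42 and 7.48 CPM at 0 h and 51.4, 54.03 and 50.3 CPM at 4 h (2.73 (SE 0.07)). Of 24 genes of oxidative stress defence, 7 rose and 1 fell (median 0.25). Sod2, the mitochondrial superoxide dismutase, was at 34.9, 34.6 and 38.98 CPM at 0 h and 186, 218 and 190.1 CPM at 4 h (2.45 (SE 0.07)), and the metallothionein Mt2 at 20.8, 19.5 and 21.02 CPM at 0 h and 241, 289 and 256 CPM at 4 h (3.67 (SE 0.07)). Of 24 genes of ER stress and ATF4, 5 rose and 1 fell. Their median of 0.11 was from -0.0028 to 0.16 under the alternatives on the counts, TPM values not included. Of 19 clock genes 4 rose and 4 fell (median 0.14): Nfil3, a repressor of Dbp targets, was at 15.7, 15.1 and 17.3 CPM at 0 h and 79.7, 83.04 and 76.1 CPM at 4 h (2.31 (SE 0.06)), and Tef, a relative of Dbp, at 183, 179.8 and 173 CPM at 0 h and 63.7, 61.2 and 65.05 CPM at 4 h (-1.5001 (SE 0.05)). None of 32 cytosolic ribosomal protein genes was called by edgeR or under any alternative that kept the fold threshold, DESeq2 and the TPM values included; 6 had an unadjusted p under 0.05, and their log2 changes lay between -0.21 and 0.22, with a median of -0.04 that ran from -0.16 to 0.01 with other settings on the counts and was -0.27 on TPM values.

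**Figure D3:**
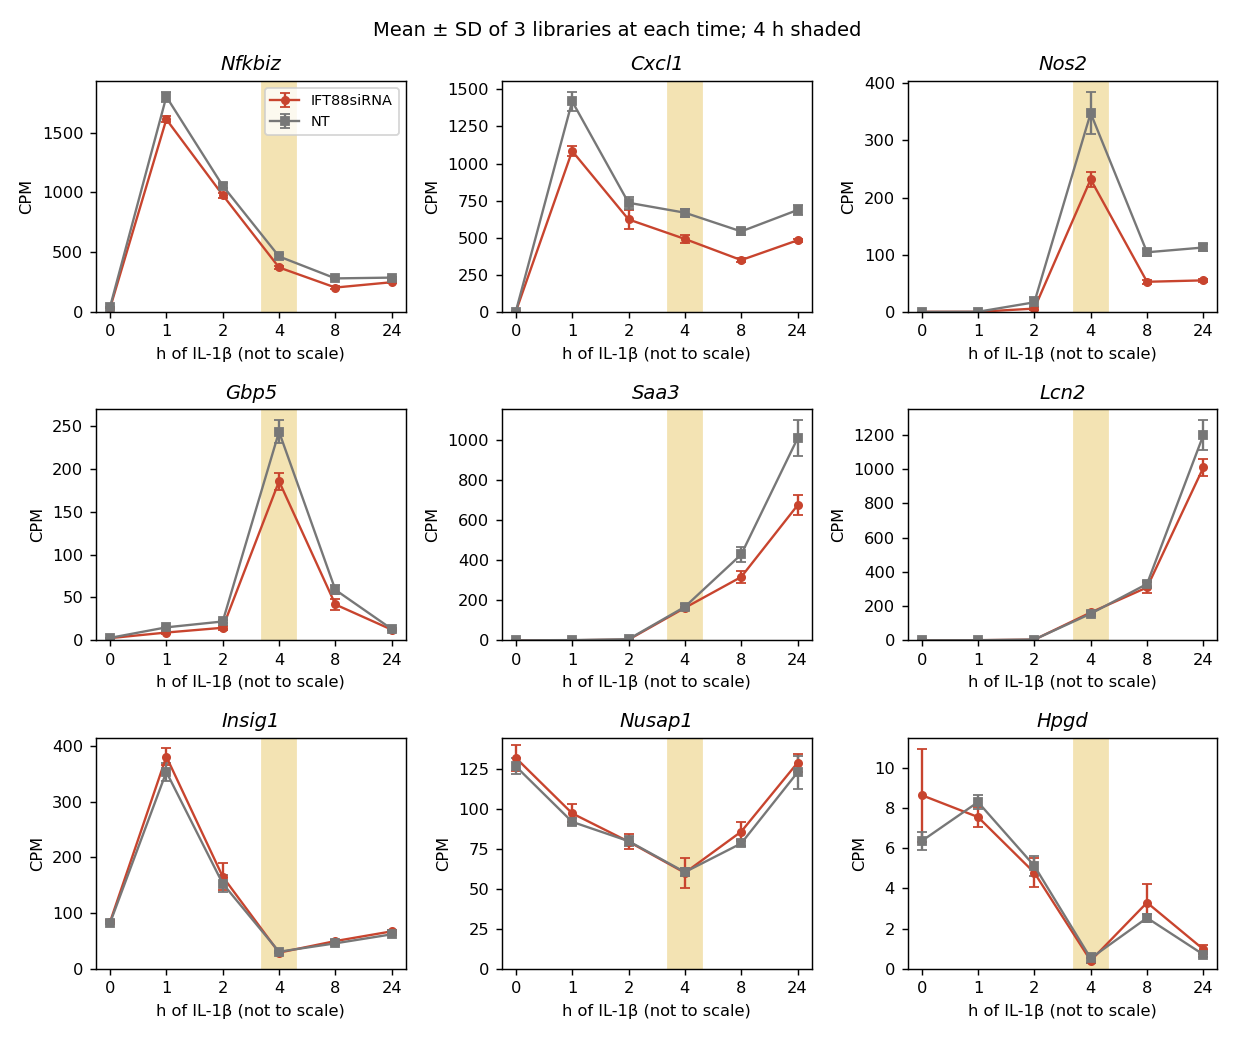
Mean CPM ± SD (n = 3, linear axis from 0) of 9 genes in IFT88siRNA cells and NT cells at 0, 1, 2, 4, 8 and 24 h of IL-1β, spaced evenly and not to scale, with 4 h shaded. In IFT88siRNA cells Cxcl1 and Nfkbiz have come down by 4 h from 1084 ± 32.5 CPM and 1613 ± 24.8 CPM at 1 h, Nos2 and Gbp5 have their highest mean at 4 h, Saa3 and Lcn2 are higher at 24 h, and Insig1, Nusap1 and Hpgd have their lowest mean at 4 h.

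Set beside the other times in IFT88siRNA cells, 4 h had the most calls. Each time was tested against the same 0 h libraries, so the counts are given side by side and are not independent. At 1 h, 2373 of 15074 genes were called (15.7%), 1075 higher (7.13%) and 1298 lower (8.61%). At 2 h, 4016 of 15180 were called (26.5%), 1929 higher (12.7%) and 2087 lower (13.7%). At 8 h, 2611 of 15405 (16.9%) were called, 1504 higher (9.76%) and 1107 lower (7.19%). By 24 h these were 2257 of 15371 (14.7%), 1030 higher (6.70%) and 1227 lower (7.98%). Of the 2450 genes that rose at 4 h, 1624 (66.3%) had their highest mean at 4 h, 420 at 2 h, 99 at 1 h, 189 at 8 h and 118 at 24 h. Of the 2076 that fell, 1422 (68.5%) had their lowest mean at 4 h. Both groups of genes were chosen by their 4 h values, which favours an extreme at 4 h, so nothing is read from these shares.

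Several patterns stood behind these counts. Il6 had means of 2.49 ± 0.5601 CPM at 1 h, 9.32 ± 3.15 CPM at 2 h and 21.3 ± 3.49 CPM at 8 h, all below 4 h. Nos2 had risen late, with 0.096 ± 0.0665 CPM at 1 h and 5.698 ± 3.19 CPM at 2 h, and stood at 52.6 ± 3.51 CPM at 8 h. Pdgfb was highest at 2 h, with 79.6 ± 14.7 CPM, and back at 3.61 ± 0.9095 CPM at 8 h. Cxcl1 had its highest mean at 1 h, 1084 ± 32.5 CPM, and Nfkbia and Tnfaip3 likewise, 754 ± 25.8 CPM and 2039 ± 74.2 CPM. Higher means than at 4 h were seen at 24 h for Saa3, at 674 ± 50.1 CPM, Lcn2, at 1009 ± 51.5 CPM, and C3, at 1205 ± 11.6 CPM. At 24 h Mki67 was at 463 ± 23.7 CPM and Aspm at 109 ± 7.83 CPM.

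Between 2 and 4 h, 4272 of 14853 genes were called (28.8%), 2491 higher at 4 h (16.8%) and 1781 lower. Between 4 and 8 h, 2541 of 14939 were called (17.0%), 1171 higher at 8 h (7.84%) and 1370 lower (9.17%). Both comparisons share the 4 h libraries with the main one. Of the 4 h rises, 2440 were tested between 2 and 4 h, where 1365 had risen and 162 had fallen. Between 4 and 8 h 2441 of them were tested, and 1161 fell and 56 rose further. These genes were chosen by their 4 h values, which favours a rise before 4 h and a fall after it. Nothing is therefore read from these counts.

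The NT cells gave a similar number of calls. Of 15082 genes tested at 4 h against 0 h, 4448 were called (29.5%), 2477 higher (16.4%) and 1971 lower (13.1%). Of 2424 rises in NT cells that were tested in IFT88siRNA cells, 2141 rose there, 281 were not called and 2 fell. Of 1912 such falls in NT cells, 1530 fell in IFT88siRNA cells and 382 were not called. Chosen the other way, of the 2450 rises in IFT88siRNA cells, 2404 were tested in NT cells, and 2141 of them rose there and none fell. Of the 2076 falls, 1999 were tested in NT cells, and 1530 fell there and 2 rose. These 2 were Gm23935 and B3gnt2, named because they are so few; B3gnt2 was at 2.21, 4.15 and 1.905 CPM at 0 h and 1.899, 1.63 and 1.68 CPM at 4 h in IFT88siRNA cells and had a log2 difference in response of -1.398 (SE 0.38, adjusted p = 0.0575).

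**Figure D4:**
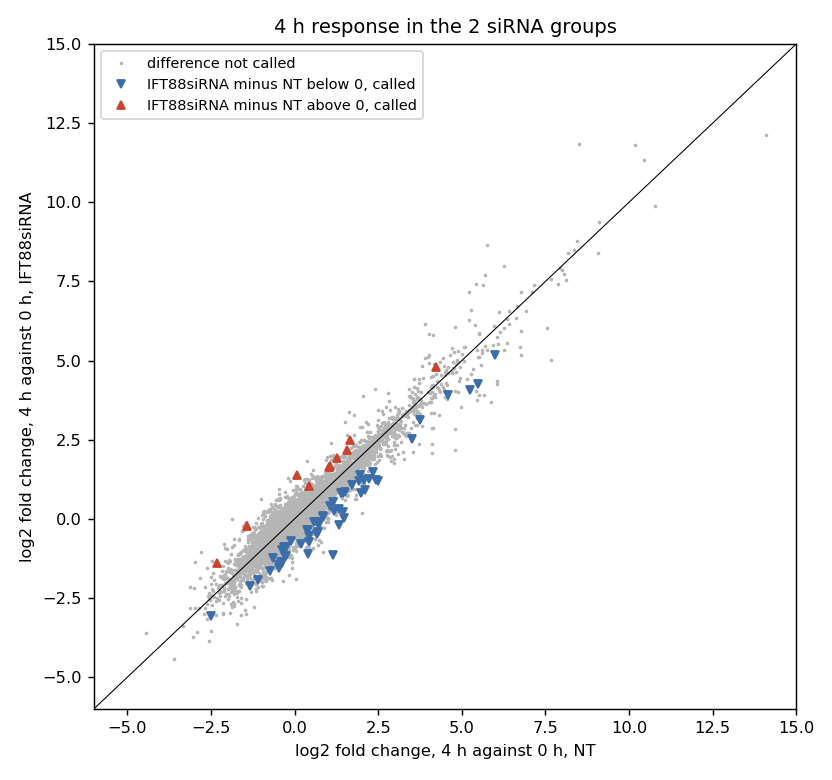
Log2 change at 4 h against 0 h in NT cells (horizontal axis) and in IFT88siRNA cells (vertical axis) of each gene tested in both groups, with the line of equal change. Grey points are genes with no called difference in response, and triangles mark the 57 genes called with a lower change in IFT88siRNA cells, below the line, and the 10 with a higher one, above it.

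The difference between the responses was tested as an interaction in 1 model of the 12 libraries. It was called for 67 of 15767 genes (0.425%), 10 with a higher change in IFT88siRNA cells (0.0634%) and 57 with a lower one (0.362%). Over all 15193 genes tested in both fits the median difference was -0.00087 and 50.2% were below 0. Of the 67, 38 were also called between IFT88siRNA and NT at 0 h, where 341 of 15274 genes were called (2.23%), and 8 at 4 h, where 64 of 14801 were (0.432%). All 57 genes with the lower change had a higher mean in IFT88siRNA than in NT cells at 0 h, and 10 had a higher mean at 4 h. None of the 10 with the higher change had a higher mean at 0 h, and 4 had at 4 h. The same libraries give all these counts, so none of them supports another.

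Leaving out single libraries moved the count of 67 to between 41 and 124. Outside 1.5 times the count were 41 without the NT 0 h library of replicate 1 and 124 without the IFT88siRNA 4 h library of replicate 2. The replicate 2 libraries of IFT88siRNA differed most from their fellows, with chi-square per degree of freedom from 5.01 to 6.61 at 0 h and from 6.11 to 8.93 at 4 h, against 1.96 and 3.50 for the other pairs. Without both of them 122 genes were called, which include 59 of the 67.

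Among the genes with a lower change in IFT88siRNA cells were several that rose in both. Steap4 was at 1.94, 2.36 and 1.76 CPM at 0 h and 35.8, 41.8 and 38.4 CPM at 4 h in IFT88siRNA cells and at 0.929, 0.783 and 0.753 CPM at 0 h and 36.97, 34.8 and 39.3 CPM at 4 h in NT cells, a log2 difference of -1.24 (SE 0.21, adjusted p = 0.00186). The groups thus met at 4 h and differed at 0 h. Bdkrb1 and Tnfsf10 had differences of -1.18 (SE 0.28, adjusted p = 0.0255) and -0.82 (SE 0.18, adjusted p = 0.0168). Tlr2 rose in NT cells from 22.5, 21.9 and 23.1 CPM to 541, 529.9 and 531 CPM, above its 4 h levels in IFT88siRNA cells, a difference of -0.65 (SE 0.07, adjusted p = 1.98e-05). Slc7a2 had a difference of -0.64 (SE 0.07, adjusted p = 1.53e-05).

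Others rose in NT cells and were not called in IFT88siRNA cells. Nr3c2, the mineralocorticoid receptor, was at 6.85, 6.79 and 6.07 CPM at 0 h and 5.37, 7.02 and 4.83 CPM at 4 h in IFT88siRNA cells, where the groups overlapped, and went from 3.76, 3.96 and 4.21 CPM to 10.8, 8.44 and 10.8 CPM in NT cells. Its difference in log2 change was -1.54 (SE 0.18, adjusted p = 3.08e-05). Ptgfr, the receptor of prostaglandin F2α, was at 5.14, 4.57 and 5.11 CPM at 0 h and 5.37, 5.39 and 4.37 CPM at 4 h and in NT cells from 1.44, 2.88 and 2.48 CPM to 7.47, 5.41 and 6.003 CPM, a difference of -1.45 (SE 0.24, adjusted p = 0.00111). H19, an imprinted non-coding RNA that overlaps Mir675, had a difference of -1.23 (SE 0.23, adjusted p = 0.00354). Gm23935, a miRNA gene model, had the largest difference, -2.28 (SE 0.52, adjusted p = 0.0182), with an uneven 0 h group in IFT88siRNA cells, at 131, 626 and 162 CPM. Without the high 0 h library, of replicate 2, the difference was -1.21 and still called, while the fall in IFT88siRNA cells was -0.07 and no longer called. That fall was also not called with DESeq2 (adjusted p = 0.237), on TPM values or without the 4 h library of replicate 3 (-0.88). The call of the difference was lost with DESeq2 (adjusted p = 0.154), in a model of all 36 libraries (adjusted p = 0.0651), and without either replicate 3 library of NT cells, at -2.14 without that of 0 h and -2.004 without that of 4 h.

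Several matrix genes were among the 57; the call of Lum, at few reads, was lost with DESeq2 (adjusted p = 0.0617), with the replicate number as a block (adjusted p = 0.0974) and without any 1 of 9 of the 12 libraries (-1.47 to -1.18). Lum, a collagen-binding proteoglycan that rose in both groups, had a difference of -1.31 (SE 0.33, adjusted p = 0.0406), Eln, which encodes elastin, of -1.16 (SE 0.15, adjusted p = 8.74e-05) and Fmod of -0.79 (SE 0.15, adjusted p = 0.00415). The proteases Adamts9 and Adamts1 had differences of -1.11 (SE 0.13, adjusted p = 2.41e-05) and -0.74 (SE 0.07, adjusted p = 4.95e-06). For Adamts1 the levels were 108, 114 and 107 CPM at 0 h and 89.1, 92.6 and 79.1 CPM at 4 h in IFT88siRNA cells, all lower at 4 h, and 83.3, 89.1 and 81.7 CPM to 113, 113 and 108 CPM in NT cells, all higher at 4 h. Of the lists as a whole, 30 of 33 collagen genes had a difference below 0, against 50.2% of all genes. So had 20 of 21 immunoproteasome and MHC class I genes. Such a difference was seen in 1 of 32 ribosomal protein genes and 5 of 24 genes of ER stress. It was seen in 5 of 17 factors of mRNA decay and 8 of 27 genes of glycolysis. These lists are named for their uneven counts. Their sizes were small, with median differences of -0.12 for collagens and -0.10 for immunoproteasome and MHC class I genes. For ribosomal protein genes the median was 0.10. Members of a list were measured in the same 12 libraries and are not independent, so nothing is read from these counts. Eln was the only collagen-list gene called. Without the fold threshold, 5 of the 33 had an adjusted p under 0.05 in edgeR, and 12 an unadjusted p under 0.05. None of the 21 immunoproteasome and MHC class I genes was called by edgeR, with 5 at an unadjusted p under 0.05 and none called by DESeq2.

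The 10 genes with a higher change in IFT88siRNA cells included transcription factors and receptors. Atf3, a stress-induced factor, was at 12.2, 10.9 and 11.96 CPM at 0 h and 40.5, 45.6 and 47.1 CPM at 4 h in IFT88siRNA cells and at 23.5, 23.4 and 24.8 CPM at 0 h and 62.6, 49.2 and 62.3 CPM at 4 h in NT cells, a difference of 0.64 (SE 0.12, adjusted p = 0.00336). Its levels were lower in IFT88siRNA cells at both times, and by a larger ratio, though not a larger gap in CPM, at 0 h. Il1rl1 and S1pr3 had differences of 0.59 (SE 0.09, adjusted p = 3.17e-04) and 0.84 (SE 0.20, adjusted p = 0.0223). Hmga1, a chromatin protein, had a difference of 0.61 (SE 0.08, adjusted p = 1.40e-04); it was called together with its near-identical copy Hmga1b, between which reads cannot be placed with certainty. Bc1, a small non-coding RNA, was at 2.96, 2.43 and 2.89 CPM at 0 h and 2.13, 2.52 and 2.48 CPM at 4 h in IFT88siRNA cells and fell from 3.59, 3.01 and 3.9001 CPM to 1.64, 1.24 and 1.06 CPM in NT cells, a difference of 1.19 (SE 0.26, adjusted p = 0.0123). The call of Il1rl1 fell under the fold threshold with DESeq2 (0.58), without the filter on low counts (0.56) and without any 1 of 7 of the 12 libraries (0.51 to 0.58). That of Atf3 was lost without the NT 4 h library of replicate 2 (0.53) or without both IFT88siRNA libraries of replicate 2 (0.58), and that of Bc1 without the NT 0 h (1.11) or 4 h (1.07) library of replicate 3 or in a model of all 36 libraries (adjusted p = 0.114). S1pr3 lost its call without any 1 of 5 libraries (IFT88siRNA 0 h replicates 1 and 2, NT 0 h replicates 1 and 2, NT 4 h replicate 2), with differences from 0.69 to 0.84, and also with the replicate number as a block (adjusted p = 0.0643) and in the model of 36 libraries (adjusted p = 0.0962). Hmga1 lost its call without the filter on low counts (0.58) and without any 1 of 4 (IFT88siRNA replicate 1 at 0 h and at 4 h, NT 0 h replicate 1, NT 4 h replicate 2), with differences from 0.54 to 0.58.

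**Figure D5:**
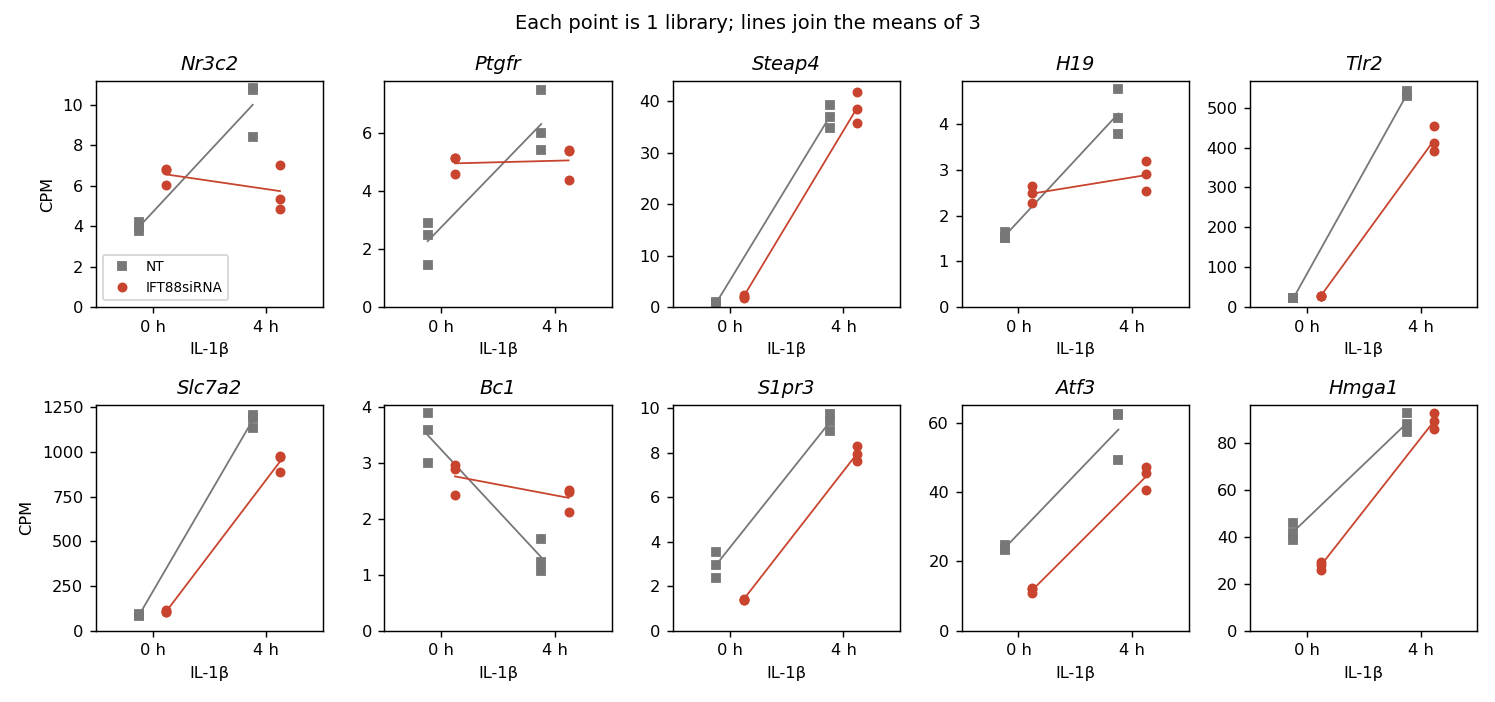
CPM (linear axis from 0) at 0 and 4 h of IL-1β in NT cells (squares) and IFT88siRNA cells (circles) for 6 genes with a lower and 4 with a higher change in IFT88siRNA cells, with 1 point per library and lines joining the means of 3. In the first 6 panels, from Nr3c2 to Slc7a2, the IFT88siRNA points lie above the NT points at 0 h, and in the last 4, from Bc1 to Hmga1, below them.

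The inflammatory genes with the largest rises were not among the 67. Nos2 was at 329, 323 and 390.1 CPM at 4 h in NT cells, above all IFT88siRNA libraries, and its level at 4 h was lower in IFT88siRNA cells by a log2 of -0.59 (SE 0.07, adjusted p = 1.06e-04), while its difference in response, -1.9999 (SE 1.41, adjusted p = 0.626), has a wide error from the few reads at 0 h. Il6 was likewise lower at 4 h, with a log2 difference of -0.63 (SE 0.06, adjusted p = 1.42e-05), and Icam1 with -0.81 (SE 0.07, adjusted p = 8.46e-06). Csf3 and Tnf were lower with -0.60 (SE 0.10, adjusted p = 0.00321) and -1.01 (SE 0.21, adjusted p = 0.011). For these 5 genes the test of the difference in response gave adjusted p-values from 0.0837 to 0.903. Ptgs2 and Cxcl5 were also lower in all IFT88siRNA libraries at 4 h than in NT cells but under the fold threshold, with log2 differences of -0.35 (SE 0.06, adjusted p = 0.00254) and -0.35 (SE 0.06, adjusted p = 0.00347). Only genes with a lower level are named here, and they do not stand for all inflammatory genes. The difference in response had medians of -0.32 for CXC chemokines and 0.070 for CC and CX3C chemokines. It had medians of -0.017 for cytokines and colony-stimulating factors and 0.022 for interferon-stimulated genes. No member of these lists was called for it at both thresholds. Without the fold threshold, edgeR gave an adjusted p under 0.05 for 1 CXC chemokine and 2 cytokines or colony-stimulating factors. The same held for 1 interferon-stimulated gene and for no CC or CX3C chemokine.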

How the data were processed

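RNA of 36 libraries (2 siRNAs, 6 times, 3 replicates each) was sequenced as mRNA-selected, paired-end libraries. The submitters' processing notes name HISAT2 2.1.0, featureCounts from Subread 1.6.3 and Salmon 0.9.1, with GRCm38. The authors deposited raw featureCounts counts per gene for 53421 genes, with no normalization, and Salmon TPM values, scaled to transcript length and library, for 52416 genes. featureCounts was run with default settings, that is, without strand and without reads that map to several places, which bears on overlapping genes and near copies. No deposited column was left unmapped (0 unused columns).

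The counts were tested in edgeR 4.0.16 (quasi-likelihood test, TMM scaling, the low-count filter filterByExpr, Benjamini-Hochberg adjustment), with only the libraries of the groups compared in each fit, and the difference in response as an interaction over 12 libraries. A gene was called at an adjusted p under 0.05 and a fold over 1.5. CPM values were TMM-scaled over all 36 libraries, and a standard error is the log2 change divided by the square root of the test's F. Counting intervals (95%) and the floor of 3 counts over the group cover counting error only. Scripts ran in R 4.3.3 and Python 3.11.15 (pandas 2.3.3, matplotlib 3.10.9) and were tested on simulated counts. Gene locations are from GENCODE vM21 (GRCm38), found for 15198 of the 15215 genes tested.

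The genes, lists and tests were chosen with earlier results of these data known. Genes were named by this rule: the 10 largest rises and 10 largest falls among genes called, with a mean of at least 50 counts and no overlap between groups; up to 4 called members of each list with the largest change and at least 50 counts, with members that show what the rest of the list did; the 5 largest interactions in each direction at 50 counts or more; and Ift88, the genes that the study names and the markers. Alternatives were DESeq2 1.42.0, other scalings, no filter, no fold threshold, a replicate block, models with more libraries, limma 3.58.1 on log2(TPM + 1) or log2(TPM + 0.1) with and without a minimum of 1 TPM in 3 libraries, and each library left out. The share of promoters with a motif among genes that rose or fell had been planned, but only 69.4% of the genes tested had a promoter window, so that check was void. A few members of the lists are counted in them but not reported by name here.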

Additional observations from a re-analysis of the deposited data

Results flagged for a closer look

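The test of the difference between the 2 siRNA groups, an interaction in edgeR over 12 libraries, picked out 67 genes whose change at 4 h differed between IFT88siRNA and NT cells, and the named ones are given here as log2 differences, IFT88siRNA minus NT. Of the 57 with the lower change, 19 rose in both groups, 14 rose in NT cells and were not called in IFT88siRNA cells, 14 fell in IFT88siRNA cells and were not called in NT cells, 5 fell in both, 4 were called in neither and Gm23935 fell in 1 group and rose in the other. Of the 10 with the higher change, 6 rose in both groups.

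Among receptors, the differences were -1.54 for Nr3c2, -1.45 for Ptgfr, -1.18 for Bdkrb1 and -0.65 for Tlr2, while Il1rl1 and S1pr3 had 0.59 and 0.84. Of the matrix genes and their proteases, Lum had -1.31, Eln -1.16, Adamts9 -1.11, Cilp2 -0.99, Fmod -0.79 and Adamts1 -0.74. Secreted factors and genes of the Hedgehog and Wnt pathways were Hgf, the hepatocyte growth factor, with -1.19, Sfrp2, a secreted Wnt modulator, with -1.01, Boc, a Hedgehog co-receptor, with -0.92, and Tnfsf10 with -0.82. Genes of metal and arginine transport were Steap4 with -1.24, the ferritin receptor Scara5 with -0.66 and Slc7a2 with -0.64.

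The transcription and chromatin factors were Sox4 with -0.59, Hmga1 with 0.61 and Atf3 with 0.64. The call of Sox4 was lost with DESeq2, the replicate block, upper-quartile scaling and a model of 36 libraries, and without any 1 of 7 of the 12 libraries, where its difference ran from -0.62 to -0.41. Non-coding and uncharacterised genes were Gm23935 with -2.28, H19 with -1.23, 4833423E24Rik with -0.59 and Bc1 with 1.19. Atg9b, a gene of autophagy whose exons overlap those of Nos3, had 0.91, and its call was lost with DESeq2 (0.89), the replicate block (0.90), a model of 36 libraries (0.91) and without any 1 of 9 of the 12 libraries, where its difference ran from 0.65 to 0.94.

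Leaving out 1 library also ended the calls of Lum (-1.47 to -1.18), Hgf (-1.18 to -0.97), Bdkrb1 (-1.20 to -0.97), Tnfsf10 (-0.73 to -0.70), Scara5 (-0.66 to -0.55), 4833423E24Rik (-0.62 to -0.46), Cilp2 (-0.88, without the NT 0 h library of replicate 3) and Il1rl1 (0.51 to 0.58), with the differences where the call was lost in brackets. In the model of 36 libraries the calls of Tnfsf10, Scara5, 4833423E24Rik and Cilp2 were lost too. Those of Nr3c2, Ptgfr, Steap4, H19, Eln, Adamts9, Sfrp2, Boc, Fmod, Adamts1, Tlr2 and Slc7a2 were kept under each alternative run for the difference.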

How the results depend on the processing

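The number of genes called at 4 h in IFT88siRNA cells, 4526, was 4211 with DESeq2, between 4522 and 4844 with other scalings, 5247 without the filter, from 4139 to 4556 on the TPM values, 4722 and 4899 in models of 18 and 36 libraries, from 4484 to 4604 with 1 library left out, and 9397 without the fold threshold. The totals on the TPM values hide a change of genes: only from 2979 to 3149 of the 4526 were also called there. Genes called higher numbered from 1595 to 1663 on the TPM values, against 2450 on the counts. In NT cells 4448 became 9992 without the fold threshold and ran from 4448 to 4503 with 1 library left out. The 67 differences in response became 107 without the filter, 302 without the fold threshold, 122 without both replicate 2 libraries of IFT88siRNA (chosen after seeing the data), and from 41 to 124 with 1 library left out; the cause was not tested. The counts at 1, 2, 8 and 24 h, and between 2, 4 and 8 h, all stayed within 1.5 times with DESeq2, the block or 1 library left out.

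The labels do not say whether replicate numbers pair the samples. The deviations of same-numbered libraries at 0 h and 4 h had correlations of -0.047, -0.12 and -0.10. Over all pairs of a 0 h and a 4 h library they ran from -0.12 to 0.15. No shared deviation was seen, but 3 libraries per group cannot exclude a pairing. With the replicate block 4473 genes were called at 4 h and 53 for the difference in response, of which 51 were among the 67. Of the genes named for a difference, S1pr3, Sox4, Atg9b, Lum, Bdkrb1, Tnfsf10 and 4833423E24Rik lost their call under it.

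Of 3937 values of named genes under the alternatives, 3804 kept their side of the threshold, 124 lost a call, 9 gained one, and none changed direction while called. Mcm6, Hspa5 and Orc1 lost their call on TPM values with either pseudocount, where the median of all genes lay between -0.226 and -0.0456, and Adam19 with a pseudocount of 1. Depth limits the folds of genes with few reads at 0 h, such as Nos2, Cxcl2 and Saa3, and of lowly expressed genes such as Tnf and Mmp3.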
